A study of Mus musculus with 4 samples.

Results

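The genes described here encode 5 mouse enzymes that place methyl groups on lysine 36 of histone H3, namely Setd2, Nsd1, Whsc1, Whsc1l1 and Ash1l. They were chosen by name among 22367 protein-coding genes of the mouse annotation, and the enriched regions inside them and within 5 kb of either end were read from the lists of H3K36me3 and H3K9me3 regions. The lists held 31593 and 32502 regions, 64095 in all, of which 80 lay at these genes. The regions came from chromatin immunoprecipitation followed by sequencing (ChIP-seq) in embryonic stem (ES) cells of strain 129S1/SvImJ kept below passage 20. The WT cells carried unaltered H3f3a and H3f3b, the genes of the histone variant H3.3. The Targeted H3.3 G34R ES cells carried a G34R substitution in a single targeted copy of H3f3a, expressed from its endogenous promoter after Cre excision of a conditional allele, with H3f3b unaltered. Each mark was profiled in 1 WT and 1 G34R library, so the 4 libraries formed 4 groups with no replicate. The deposited lists gave positions only, and each list joined WT and G34R. Levels per library and sequencing depth were therefore unknown, the difference between WT and G34R cells at these genes was not analysed here, and no test across samples was possible.

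H3K36me3 is laid down behind RNA polymerase II and marks the bodies of transcribed genes, usually more towards their ends. Setd2 is the enzyme that makes most of the trimethylated form, while Nsd1, Whsc1 (also called Nsd2) and Whsc1l1 (Nsd3) are related enzymes that add the mono- and dimethyl forms, and Ash1l is a Trithorax-type enzyme that makes the dimethyl form. H3K9me3 is a mark of heterochromatin and silenced repeats and is also found on exons of zinc finger genes. In the build mm9 all 5 genes were on the plus strand. Setd2 (ENSMUSG00000044791.9) was at chr9:110435101-110521137 and Nsd1 (ENSMUSG00000021488.6) at chr13:55311143-55419686. Whsc1 (ENSMUSG00000057406.8) was at chr5:34163374-34240624, Whsc1l1 (ENSMUSG00000054823.8) at chr8:26712073-26830139 and Ash1l (ENSMUSG00000028053.7) at chr3:88769734-88883295. With lengths from 77251 to 118067 bp they were long genes, and they are set beside the 3182 protein-coding genes at least as long as the shortest of them.

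Sequences of exons that carry the main patterns are shown here on the plus strand of mm9, 5′ to 3′. Exon 13 of each NSD-type gene is shown because it was one of only 2 matched exons that lay inside an H3K36me3 region in all 3 genes. It was at chr13:55391416-55391616 in Nsd1, chr5:34223636-34223836 in Whsc1 and chr8:26792971-26793168 in Whsc1l1. Capitals mark the 88 bases that the 3 genes share.
Nsd1 exon 13: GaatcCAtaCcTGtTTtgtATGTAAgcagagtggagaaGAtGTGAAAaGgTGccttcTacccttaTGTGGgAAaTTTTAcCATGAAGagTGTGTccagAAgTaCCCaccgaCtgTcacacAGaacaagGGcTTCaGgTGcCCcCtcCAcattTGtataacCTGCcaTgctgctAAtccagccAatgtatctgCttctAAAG
Whsc1 exon 13: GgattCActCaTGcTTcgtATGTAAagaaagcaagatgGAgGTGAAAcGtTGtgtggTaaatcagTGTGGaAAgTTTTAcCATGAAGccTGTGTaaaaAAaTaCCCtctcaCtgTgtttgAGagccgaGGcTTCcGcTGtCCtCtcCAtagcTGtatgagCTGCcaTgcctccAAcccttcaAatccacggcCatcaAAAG
Whsc1l1 exon 13: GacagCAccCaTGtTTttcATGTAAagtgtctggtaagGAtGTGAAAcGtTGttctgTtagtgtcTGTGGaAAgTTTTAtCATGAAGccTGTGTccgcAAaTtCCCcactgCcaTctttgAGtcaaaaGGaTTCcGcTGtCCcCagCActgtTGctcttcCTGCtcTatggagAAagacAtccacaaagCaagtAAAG

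Exon 15 of Nsd1 and Whsc1 is shown because the Whsc1 copy, at chr5:34225176-34225332, lay in both an H3K36me3 and an H3K9me3 region, while the Nsd1 copy, at chr13:55394919-55395075, lay in an H3K36me3 region only. Capitals mark the 113 bases that the 2 genes share.
Nsd1 exon 15: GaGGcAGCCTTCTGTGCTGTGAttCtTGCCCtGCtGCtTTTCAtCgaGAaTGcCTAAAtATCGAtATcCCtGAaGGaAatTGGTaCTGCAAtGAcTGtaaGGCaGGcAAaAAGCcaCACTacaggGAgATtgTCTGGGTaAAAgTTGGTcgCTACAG
Whsc1 exon 15: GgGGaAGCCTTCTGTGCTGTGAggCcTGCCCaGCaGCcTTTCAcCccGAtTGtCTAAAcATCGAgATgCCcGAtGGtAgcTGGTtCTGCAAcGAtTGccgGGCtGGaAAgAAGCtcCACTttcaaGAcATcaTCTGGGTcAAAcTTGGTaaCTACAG

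Setd2 exon 11 and Ash1l exon 13 are examples of short coding exons under H3K36me3 regions of 800 and 1200 bp, shown with 50 intron bases on either side at chr9:110474401-110474620 and chr3:88856615-88856879. Capitals mark coding bases, 120 in the Setd2 exon and 165 in the Ash1l exon.
Setd2 exon 11: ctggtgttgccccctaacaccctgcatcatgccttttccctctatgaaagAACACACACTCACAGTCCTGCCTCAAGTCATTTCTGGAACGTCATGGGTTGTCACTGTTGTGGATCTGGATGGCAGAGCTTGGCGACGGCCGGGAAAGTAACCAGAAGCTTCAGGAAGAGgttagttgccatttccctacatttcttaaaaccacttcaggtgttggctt
Ash1l exon 13: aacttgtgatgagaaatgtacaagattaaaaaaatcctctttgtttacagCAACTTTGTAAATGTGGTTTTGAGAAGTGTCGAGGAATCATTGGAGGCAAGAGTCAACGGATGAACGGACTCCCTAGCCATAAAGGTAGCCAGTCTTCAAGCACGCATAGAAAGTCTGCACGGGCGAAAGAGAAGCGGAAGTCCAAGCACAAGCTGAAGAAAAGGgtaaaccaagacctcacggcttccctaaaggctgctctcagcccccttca

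The last pair comes from the H3K9me3 regions of Whsc1 and Ash1l. In each gene the 200 bp bin with the most CpG was picked among H3K9me3 bins free of untranslated bases. The counts are thus maxima by choice, and the mean over all bins under H3K9me3 was 10.1 in Whsc1 and 1.20 in Ash1l. The Whsc1 stretch, just after the gene start at chr5:34163801-34164000, held 30 CpG dinucleotides in 200 bp. The Ash1l stretch, in an intron at chr3:88780401-88780600, held 3. Capitals mark the CpG dinucleotides.
Whsc1 H3K9me3 bin: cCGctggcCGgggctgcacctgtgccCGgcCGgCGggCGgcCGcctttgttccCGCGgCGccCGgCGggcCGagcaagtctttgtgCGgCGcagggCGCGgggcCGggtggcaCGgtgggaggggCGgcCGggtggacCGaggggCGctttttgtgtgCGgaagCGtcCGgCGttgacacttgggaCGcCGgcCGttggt
Ash1l H3K9me3 bin: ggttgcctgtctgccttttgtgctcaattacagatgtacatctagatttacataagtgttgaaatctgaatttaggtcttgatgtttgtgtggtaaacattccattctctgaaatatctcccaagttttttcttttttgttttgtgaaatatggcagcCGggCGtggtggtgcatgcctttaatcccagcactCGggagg

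All 5 genes carried H3K36me3, where carrying means that a region overlapped the gene by at least 1 bp. The mark was present in 34% of all protein-coding genes (7609 of 22367) and in 31.8% of the long genes (1011 of 3182). By contrast, 2 of the 5 genes, Whsc1 and Ash1l, carried H3K9me3, which was present in 40.2% of all protein-coding genes and in 80.2% of the long genes. Of the 80 regions, 73 were H3K36me3 and 7 were H3K9me3. Inside the genes lay 68 H3K36me3 and 6 H3K9me3 regions, and 5 and 1 lay in the flanks alone. Coding bases were present in 40 of the 68 H3K36me3 regions, and 25 lay entirely in introns.

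**Figure D1:**
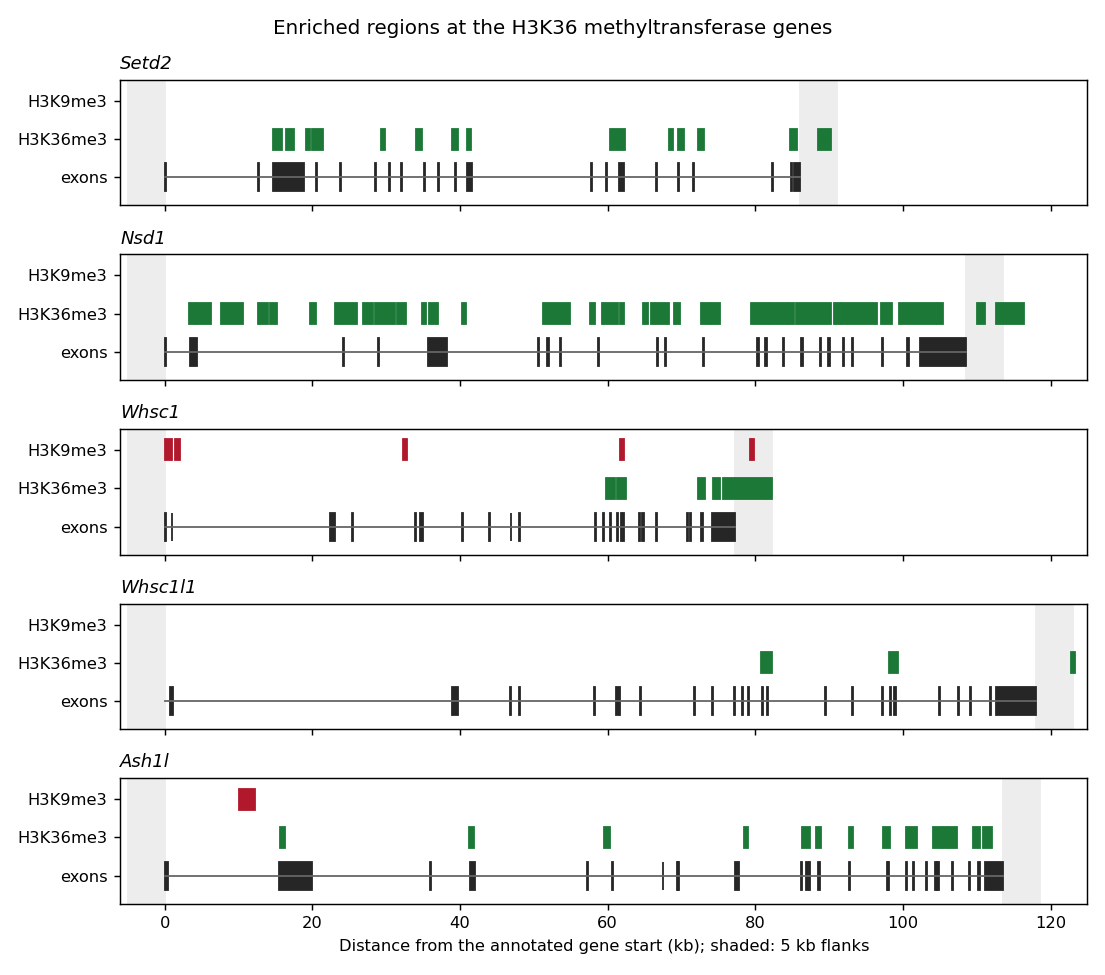
Position of every H3K36me3 region (green) and H3K9me3 region (red) at the 5 genes, in kb from the annotated gene start, above the exons of the longest coding transcript (black) and with the 5 kb flanks shaded. H3K36me3 runs through most of Nsd1, starts 59.8 kb into Whsc1 and 80.7 kb into Whsc1l1, and no H3K9me3 region lies in Setd2, Nsd1 or Whsc1l1.

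The share of each gene under H3K36me3 was measured as the number of 200 bp bins covered. Nsd1 had by far the most, 277 of 544 bins or 50.9% (95% Wilson interval 46.7 to 55.1). Setd2 followed with 62 of 431 bins, 14.4% (11.4 to 18). Ash1l had 62 of 569 bins, 10.9% (8.59 to 13.7), and Whsc1 had 31 of 388 bins, 7.99% (5.69 to 11.1). Whsc1l1 was lowest, with 14 of 591 bins, 2.37% (1.42 to 3.94). The intervals of Setd2 and Ash1l overlapped, as did those of Ash1l and Whsc1, whereas those of Nsd1 and Whsc1l1 overlapped no other. With only regions at least 1 kb wide, Whsc1 had 7.99%, Setd2 7.89% and Ash1l 7.03%, so the order of these 3 genes depended on narrow regions. These intervals cover counting error only, and adjoining bins are not independent. The 14 bins of Whsc1l1, for example, came from 2 regions. The intervals therefore do not settle the order of the genes.

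**Figure D2:**
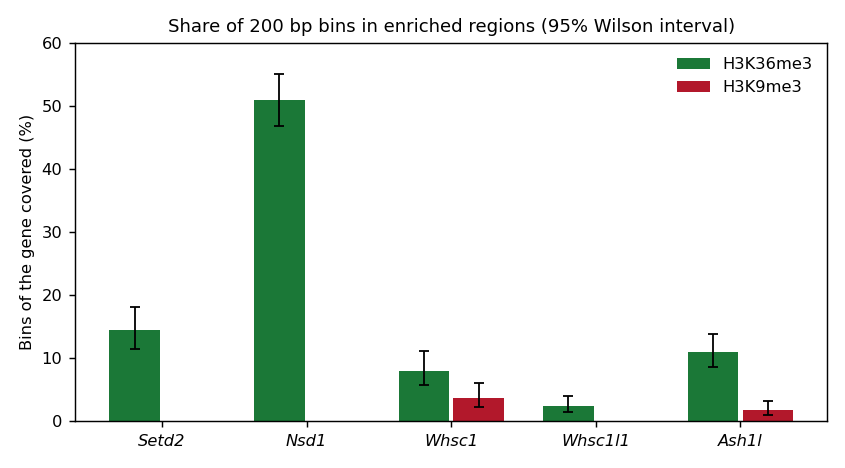
Percentage of the 200 bp bins of each gene that lie in an H3K36me3 (green) or H3K9me3 (red) region, with 95% Wilson intervals as error bars and no bar where no bin was covered. Nsd1 reaches 50.9% for H3K36me3, and the highest H3K9me3 share is 3.61% in Whsc1.

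Among the 3182 long genes the median share under H3K36me3 was 0, the 90th percentile 8.66%, the 95th 20.7% and the 99th 48.5%. The median of the 5 enzymes was 10.9%. Nsd1 ranked 29th of the long genes, Setd2 214th, Ash1l 270th, Whsc1 335th and Whsc1l1 591st. Even Whsc1l1 thus had a larger share than 81.4% of the long genes, most of which had no region. Among the 1011 long genes that carried the mark, the median was 3.74%, which lay above the Whsc1l1 value and below those of the other genes.

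Nsd1, the gene whose loss in one copy causes the human overgrowth disorder Sotos syndrome, had 34 H3K36me3 regions inside its body, from 600 to 5000 bp wide with a median of 1200 bp. Together they covered 55400 bp. The first began 3258 bp after the gene start, and the last ended 3086 bp before the gene end. Of the 33 gaps between regions, 14 were 1 bin wide. Regions at most 2 kb apart formed a run of 26.0 kb at chr13:55390601-55416600. That run held the widest region, chr13:55410601-55415600, which covered exon 22 and the start of exon 23 with 1812 coding bases, as well as 2 regions of 4800 bp. The largest gap, 10.4 kb at chr13:55352001-55362400, began in the intron after exon 5 and took in exon 6. H3K36me3 touched 20 of the 23 exons of the longest coding transcript and covered 17 of them in full, and exons 1, 6 and 9 had none. Exon 5, the largest coding exon with 2560 bp, was 46.9% covered. Of the 34 regions, 18 lay in introns only.

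Setd2, the trimethylating enzyme, had 13 narrower regions of 600 to 2000 bp, with a median of 800 bp and 12400 bp covered. None lay in the first 14.7 kb, and the first lay in exon 3, the 4286 bp exon that makes up much of the coding sequence. A pair of regions, chr9:110449801-110451000 and chr9:110451601-110452600, lay wholly in coding bases of this exon and covered 51.3% of it. The widest region was chr9:110495401-110497400 over exon 15, with 670 coding bases. It ended a gap of 18.8 kb, chr9:110476601-110495400, with no region. The last region inside the gene, chr9:110519801-110520800, covered exon 20 and part of exon 21 and stopped 337 bp before the gene end. In all 8 of 21 exons were touched, 5 of them in full, and 4 of the 13 regions lay in introns only.

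Ash1l had the same number of covered bases as Setd2, 12400 bp, in 14 regions of 600 to 1400 bp with a median of 900 bp. They were concentrated late in the gene, where 10 of the 14 began in the last 3 of 10 equal parts of the gene. Those 3 parts held 79.0% of the covered bases, against 100% in Whsc1, 42.9% in Whsc1l1, 41.9% in Setd2 and 40.8% in Nsd1. Before those parts the regions were isolated. The first, chr3:88785401-88786000, lay entirely in exon 2, a coding exon of 4558 bp that was 13.2% covered, and a gap of 25.0 kb separated it from the region in exon 4, chr3:88811001-88811600. The longest run of regions at most 2 kb apart was 3.2 kb long at chr3:88873801-88877000. H3K36me3 touched 16 of the 27 exons and covered 11 in full, and 3 regions lay in introns only.

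Whsc1, the gene deleted in Wolf-Hirschhorn syndrome, had 5 H3K36me3 regions, and all lay beyond chr5:34223201, after the first 77.4% of the gene. They touched 6 of 23 exons, numbers 13 to 16, 22 and 23. The region chr5:34224601-34225800 over exons 14 to 16 held the most coding bases, 543. The widest, chr5:34239001-34244800, had 1624 of its 5800 bp in Whsc1 and ran past the gene end into Whsc2, a gene on the opposite strand that overlaps the end of Whsc1 by 1040 bp. ChIP-seq has no strand, so the H3K36me3 of this stretch could not be assigned to either gene. Several annotated Whsc1 transcripts stop before the first H3K36me3 region. The transcript chr5:34163393-34214292 had none of its bins covered, and the transcript ending at the far end, chr5:34163374-34240615, had 31 covered. A short transcript late in the gene, chr5:34228080-34238134, had 8 of 51 bins covered.

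Whsc1l1, which lies in the chromosomal segment amplified in some human breast cancers, had only 2 H3K36me3 regions inside. The region chr8:26792801-26794400 was 1600 bp wide and covered exons 13 and 14 with 369 coding bases. The region chr8:26810201-26811400 was 1200 bp wide and covered exons 18 and 19 with 383 coding bases. Nothing was listed in the first 68.4% of the gene or in the last 18739 bp, and 4 of 24 exons were touched, each of them in full. As at Whsc1, some of the shorter transcripts ended before the mark began, and others carried it. Transcripts ending at chr8:26787686 and chr8:26788444 had no covered bin, while the full-length transcript chr8:26712756-26830139 had 14. The short transcripts chr8:26804605-26825164 and chr8:26804605-26825442, which lie late in the gene, had 6 covered bins each.

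H3K36me3 took a larger share of coding sequence than of introns in all 5 genes, a direction seen in 79.1% of the 1011 long genes with the mark. Coverage of coding bases was 78.3% in Nsd1, 52.6% in Setd2, 33.9% in Ash1l, 28.1% in Whsc1 and 17.0% in Whsc1l1. Intron coverage was 49.7%, 10.4%, 8.40%, 4.00% and 1.81% in the same order. The coding to intron ratio was therefore smallest in Nsd1 at 1.57, where introns were widely covered, and largest in Whsc1l1 at 9.39. It was 4.04 in Ash1l, 5.05 in Setd2 and 7.05 in Whsc1. Over the long genes with H3K36me3 the medians were 21.5% of coding sequence and 2.96% of introns. Untranslated regions were 43.3% covered in Setd2, 33.4% in Ash1l, 31.8% in Nsd1 and 21.0% in Whsc1, and were not covered in Whsc1l1.

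**Figure D3:**
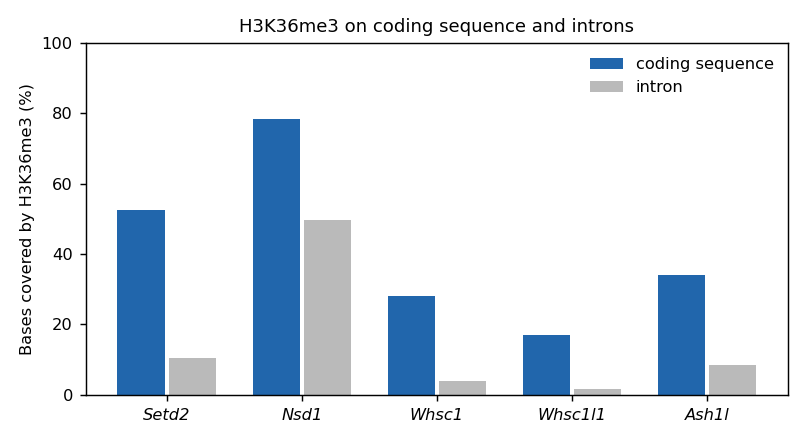
Percentage of coding bases (blue) and of intron bases (grey) of each gene that lie in an H3K36me3 region, over all annotated transcripts. The coding share is higher in each gene, from 17.0% against 1.81% in Whsc1l1 to 78.3% against 49.7% in Nsd1.

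Along the gene, each body was divided into 10 equal parts from start to end. In Nsd1 every part was covered, from 23.0% in the fourth to 88.9% in the ninth, and the first part already reached 53.4%. Setd2 had no coverage in the first, the sixth and the seventh parts and peaked at 29.0% in the third and 29.4% in the eighth. Ash1l rose to 15.9%, 26.4% and 44.0% over its last 3 parts. Whsc1 had none in its first 7 parts and then 23.0%, 8.12% and 46.9%. In Whsc1l1 the seventh and the ninth parts, with 13.6% and 10.2%, were the only ones covered. The mean over the 1011 long genes with the mark rose from 4.01% in the first part to 21.0% in the last. Ash1l and Whsc1 were most covered in the last part, as this mean was, whereas Setd2 and Nsd1 were less covered there than in the part before and Whsc1l1 had none there.

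**Figure D4:**
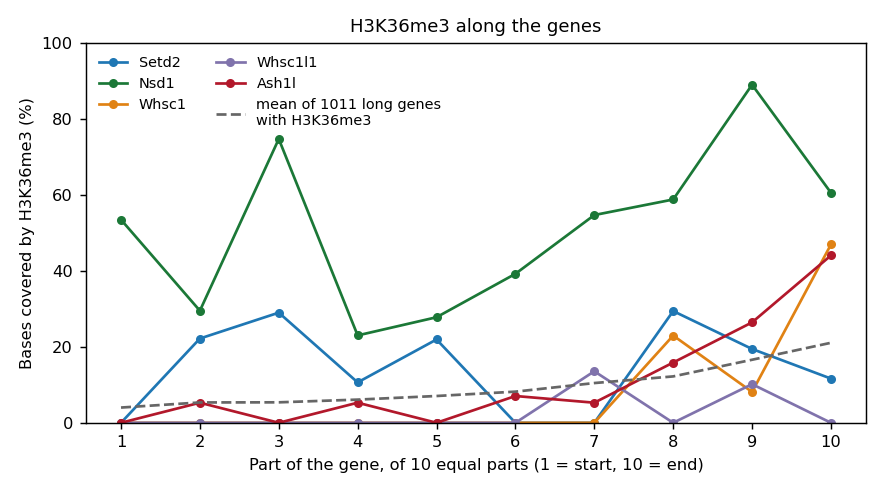
Percentage of bases under H3K36me3 in each of 10 equal parts of the 5 genes from start (1) to end (10), with the mean over 1011 long genes that carry the mark as a dashed line. Nsd1 stays above the mean throughout, and Whsc1 and Ash1l peak in the last part at 46.9% and 44.0%.

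Nsd1, Whsc1 and Whsc1l1 share an ancestor, and 11 of their coding exons could be matched by order, with lengths within 10 bp and with 55.0% to 81.0% of bases identical between genes. All 11 lay inside H3K36me3 regions in Nsd1, 5 did in Whsc1 and 4 in Whsc1l1, and each matched exon was covered either in full or not at all. Exons 13 and 14 were covered in all 3 genes, and the sequences of exon 13 given above show the bases they share. Whsc1 exons 15, 16 and 22 were covered while their Whsc1l1 counterparts were not. The reverse held for Whsc1l1 exons 18 and 19, whose Whsc1 counterparts, exons 17 and 18, had no region. Exons 12 and 19 to 21 of Nsd1 were covered in that gene alone. Exons with a shared origin thus differed in coverage from gene to gene. Adjoining exons can share 1 region, so they are not independent observations.

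**Figure D5:**
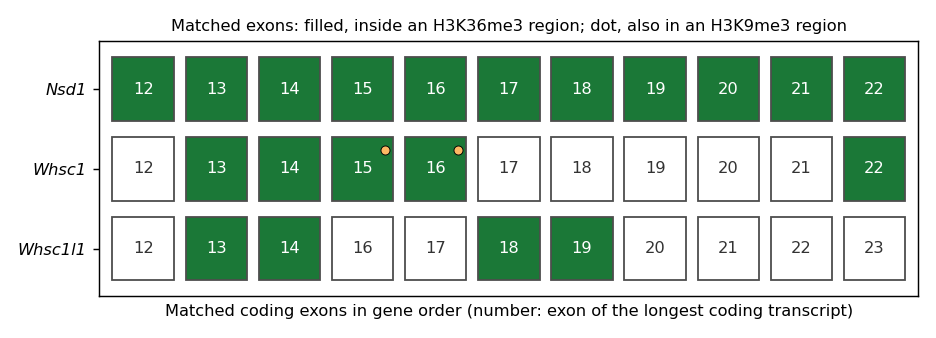
The 11 matched coding exons of Nsd1, Whsc1 and Whsc1l1 in gene order, filled where the exon lies inside an H3K36me3 region and numbered as in the longest coding transcript. All 11 are filled in Nsd1, 5 in Whsc1 and 4 in Whsc1l1, and the dots mark the 2 Whsc1 exons that an H3K9me3 region also reaches.

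H3K9me3 was sparse. Whsc1 had 14 of 388 bins, 3.61% (2.16 to 5.96), in 4 regions, and Ash1l had 10 of 569 bins, 1.76% (0.957 to 3.20), in 2 regions. Setd2, Nsd1 and Whsc1l1 had 0 of 431, 544 and 591 bins, and the nearest H3K9me3 region to their starts was 40.9, 56.5 and 81.7 kb away. Over the long genes the median was 1.62%. Whsc1 was higher than 72.1% of them and Ash1l higher than 52.0%. With only regions at least 1 kb wide, the shares were 1.29% in Whsc1 and 1.05% in Ash1l.

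At Whsc1, the first H3K9me3 region, chr5:34163401-34164400, began 27 bp after the gene start and held 199 UTR bases and 801 intron bases. The next, chr5:34164801-34165400, followed after a short gap in the intron. An H3K9me3 region within 1 kb of the start was present at 19.1% of protein-coding genes and at 27.8% of the 9875 starts rich in CpG, defined here as at least 50% GC and an observed to expected CpG ratio of at least 0.6 in the 1001 bp around the start. The Whsc1 start had 80.0% GC, 172 CpG dinucleotides and a ratio of 1.08. The starts of Setd2, with 74.7% GC and a ratio of 0.865, and of Whsc1l1, with 61.3% and 0.746, were also CpG-rich. Neither had a listed H3K9me3 region within 1 kb. The Nsd1 start, at 60.1% and 0.542, and the Ash1l start, at 40.2% and 0.260, did not meet the definition. The bins under H3K9me3 in Whsc1 held 10.1 CpG on average against 1.35 in its other bins. This mean rests on few bins, and the bin at the start shown above alone held 30. The median GC content was 43.5% under the mark and 41.0% elsewhere in Whsc1. In Ash1l the bins under H3K9me3 held 1.20 CpG on average against 1.54.

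The other Whsc1 regions were 600 bp each. One lay in an intron, chr5:34195601-34196200, and one, chr5:34225001-34225600, reached exons 15 and 16 with 310 coding bases. At Ash1l both regions, chr3:88779801-88780600 and chr3:88780801-88782000, lay in the intron before exon 2, 10.1 kb after the gene start and before the first H3K36me3 region.

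Base pairs in both lists were found at Whsc1 alone. A gene with at least 1 such bin was seen among 7.14% of all protein-coding genes and 14.0% of the long genes. Inside Whsc1, 600 bp were shared, where the H3K9me3 region over exons 15 and 16 lay wholly within the H3K36me3 region chr5:34224601-34225800. Another 600 bp were shared just past the gene end, where the H3K9me3 region chr5:34242601-34243200 lay within the wide region over Whsc2, which brought the total with flanks to 1200 bp, or 600 bp when only pairs of regions with 50% reciprocal overlap were counted. These H3K9me3 regions were 600 bp wide, and with only regions at least 1 kb wide no base pair was shared. In Ash1l the marks occupied separate stretches. As each list joined WT and G34R cells, it was not known whether both marks were present in the same cells or even in the same genotype.

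No region of either mark lay in the 5 kb before any of the 5 starts. The authors kept only bins that overlapped UCSC genes, so stretches between such genes could not enter the lists. In the annotation used here, Gon4l spans the flank before Ash1l, and Letm2 and D830025C05Rik reach into the flank before Whsc1l1. After the gene ends, H3K36me3 covered 95.5% of the 5 kb at Whsc1, 37.7% at Nsd1, 36% at Setd2 and 6.78% at Whsc1l1, and none at Ash1l. These regions lay over neighbouring genes, which were Whsc2 at Whsc1, Rab24, Prelid1 and Mxd3 at Nsd1, Nradd at Setd2 and Ppapdc1b at Whsc1l1.

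Bins under H3K36me3 had a higher median GC content than the other bins of the same gene in Setd2 (43.3% against 39.5%), Whsc1 (44.5% against 41.0%), Whsc1l1 (47.0% against 43.0%) and Ash1l (45.0% against 40.5%), whereas in Nsd1 both medians were 40.5%. Reads that align to many places were dropped before the regions were made, so the copy number of the central 50 bases of each bin was counted in the genome. More than 5 copies were found for 14 of the 267 uncovered bins of Nsd1, 20 of 507 in Ash1l, 11 of 577 in Whsc1l1, 4 of 369 in Setd2 and 3 of 357 in Whsc1. Among covered bins this was the case for 1 of 277 in Nsd1 and for 0 of 62, 31, 14 and 62 in Setd2, Whsc1, Whsc1l1 and Ash1l. Under H3K9me3 it was the case for 1 of 10 bins in Ash1l, against 19 of its 559 other bins, and for 0 of 14 in Whsc1. The part of base composition and copy number in the coverage was not tested.

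Other genes linked to H3K36 methylation, its removal or its binding, or to transcription elongation, were read from lists of names. Of 5 other SET-domain genes linked to H3K36, 3 carried H3K36me3, with a median share of 2.47%. Setd5 was highest at 41.4%, and Setmar and Prdm9, the meiotic recombination enzyme, had none. The list of 7 demethylase genes held Kdm4d, whose product acts on H3K9 and not on H3K36, and Kdm4d had no H3K36me3 region. Of the other 6 genes 5 carried the mark, from 74.7% in Kdm4a to none in Jmjd5. The genes of proteins that bind methylated H3K36 were covered in 12 of 13 cases, with a median of 40.2%, highest in Brpf1 at 83.3% and absent from Phf19. The 7 genes listed as partners of Setd2 and of transcription elongation (Polr2a, Supt6h, Iws1, Supt5h, Cdk9, Rtf1 and Hnrnpl, an RNA-binding splicing regulator) all carried it, with a median of 69.2%, from 11.6% in Rtf1 to 81.1% in Cdk9, the kinase that releases paused polymerase. Over the 32 genes, 27 carried H3K36me3 and 14 H3K9me3, and base pairs in both lists were found in 2, Kdm4b (600 bp) and Rtf1 (1800 bp). The shares over all protein-coding genes were 34%, 40.2% and 7.14%, so the counts for H3K9me3 and for both marks were close to the background. Most of these genes are shorter than the 5 methyltransferase genes, so shares cannot be compared without regard to length. Those at least as long were Kdm2a at 19.4%, Kdm2b at 4.98%, Dnmt3a at 3.87%, Kdm4c at 2.94% and Zmynd11 at 0.744%. All of these lay below Nsd1, and Kdm2a lay above the other methyltransferase genes. Genes just short of the limit of 77251 bp were Kdm4b (76809 bp) at 48.8%, Setd5 (76071 bp) at 41.4% and Setd3 (72884 bp) at 2.47%. Kdm4b and Setd5 also lay below Nsd1 and above the other methyltransferase genes, so this comparison depends on the length limit.

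The ES cell genes Pou5f1, Nanog and Sox2 had 1, 3 and 1 H3K36me3 regions, covering 40%, 40.5% and 69.2% of the gene, and no H3K9me3 region. The lists hold no expression levels, so transcription of the 5 enzymes could not be read from them.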

How the data were processed

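ChIP-seq of H3K36me3 and H3K9me3 (Abcam antibodies) in WT and G34R ES cells, 1 library per cell type and mark, was available as 2 deposited lists of positions (chromosome, start, end). Per the study's methods and the submitters' processing notes, the authors aligned reads to mm9 with Bowtie 1.0.0 with restricted multi-mapping, removed PCR duplicates, counted reads in 200 bp bins, scaled them to the total number of reads and matched the WT and G34R distributions. Bins in UCSC genes above the 95th percentile in WT or G34R were kept and neighbouring windows merged with bedtools 2.20.1. The methods text gives an upper limit on region size that the deposited positions do not follow: no region is narrower than 600 bp. A stretch absent from a list was below this threshold in both cell types, outside the genes used or removed by a later filter, which does not show that the mark was absent.

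Starts and ends were used as deposited, 1-based, with GENCODE M1 gene models on NCBIM37 (mm9). The last H3K36me3 and H3K9me3 end on chromosome 13, 120284312, matched the length in that build. Coverage was counted in bins and in bases with Python 3.11.15 and numpy 2.4.6, and intervals are 95% Wilson intervals from scipy 1.17.1. Figures were drawn with matplotlib 3.10.9. The coverage functions were checked on simulated regions with known answers, with 0 differences in 1000 tests. Exons and coding bases are those of all transcripts, except for exon numbers, which follow the longest protein-coding transcript. NSD-type exons were matched in order, with a length difference of at most 10 bp. Alternatives were another gene model, only regions at least 1 kb wide, regions joined over gaps of up to 2 kb, other overlap rules and other flanks. The members and lists were chosen with earlier results of these data known. All 5 members are named, related genes by list, and no gene was ranked by likeness. No count test was run, since the lists hold no reads.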

Additional observations from a re-analysis of the deposited data

How the results depend on the processing

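Of 42 recomputed values, 8 moved beyond the limit set for them, an interval in counted bins or, for counts of regions and genes, 1.5 times, and 34 did not. Of the 34, 9 concern genes with none of the mark. Others had little or no room to move. The longest coding transcript spanned the same bins as the gene, or 588 of 591 in Whsc1l1. The H3K36me3 regions of Whsc1 and Whsc1l1 were all at least 1 kb wide inside the genes, and the gap in Whsc1l1 was 15.8 kb. The count of 5 genes with H3K36me3 could not rise with flanks. The 34 are therefore not a measure of robustness. With only regions at least 1 kb wide, H3K36me3 coverage was 41.7% in Nsd1, 7.89% in Setd2 and 7.03% in Ash1l, and stayed at 7.99% in Whsc1, so the order of Setd2, Ash1l and Whsc1 rests on narrow regions. H3K9me3 was then 1.29% in Whsc1 and 1.05% in Ash1l, and the shared base pairs were 0 inside the gene and 0 with flanks, because the H3K9me3 regions concerned are 600 bp wide. Joining regions over gaps of up to 2 kb gave 61.6% in Nsd1 and 21.6% in Setd2. Counting only pairs with 50% reciprocal overlap gave 600 shared bp with flanks in place of 1200, which lies within the wide interval of so few bins. Flanks of 0 and 10 kb gave 74 and 82 regions. Without the stretch that Whsc2 overlaps, an alternative chosen after seeing the data, Whsc1 had 6.54%. The choice of transcript model left coding coverage above intron coverage in all 5 genes. A comparison of WT with G34R cells was planned and could not be run on positions alone. No paired analysis was possible because each group has 1 library and each list joins both cell types. Depth was unknown.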

Other observations

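Genes beside the 5 enzymes showed their own patterns. Gon4l, which overlaps the start of Ash1l by 3170 bp, had 258 of 670 bins under H3K36me3 (38.5%), although no region lay at the Ash1l start itself. Prelid1, next to Nsd1, was 88.2% covered and Nradd, next to Setd2, 52.9%. Whsc2 had 58 of 199 bins under H3K36me3 (29.1%) and 14 under H3K9me3 (7.04%), a larger H3K9me3 share than in Whsc1. Letm2, before Whsc1l1, and Rusc1, after Ash1l, had neither mark.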
